A study of Arabidopsis thaliana with 128 samples.

Results

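In Arabidopsis thaliana seedlings, 161 transcripts had levels that differed in opposite directions between mutant and normal VARICOSE (VCS), a decapping scaffold, depending on whether the exoribonuclease SUPPRESSOR OF VARICOSE (SOV) was functional. They were chosen by their mean levels at 0 min, before transcription was blocked, out of 28496 nuclear genes, of which 16721 reached 5 nuclear RPM in at least 1 genotype. Nuclear RPM is the RPM of a gene rescaled to the summed reads of genes on the 5 nuclear chromosomes. In 72 genes the ratio of vcs to WT was at most 0.67 and the ratio of vcs sov to sov at least 1.5. In 89 genes the order was turned around, with vcs to WT at least 1.5 and vcs sov to sov at most 0.67. The first set is 0.431% and the second 0.532% of the 16721 genes, while a single ratio passed its limit far more often: vcs to WT was at most 0.67 in 6.37% and at least 1.5 in 20.3% of these genes, and vcs sov to sov in 18.6% and 29.5%. Further, 751 genes were at most 0.67 and 2523 at least 1.5 in both ratios.

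In the cytoplasm, decapping exposes an mRNA to decay from the 5' end, and VCS holds the decapping enzyme and its partners together. SOV is a DIS3L2-type enzyme that degrades RNA from the 3' end. Col-0 carries a SOV allele without this activity, so that decapping mutants of Col-0 lack both routes, and loss of one route is known to change transcript abundance through altered synthesis as well as decay.

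Total RNA of whole seedlings grown for 5 d at 22 °C in constant light was sequenced after ribosomal RNA depletion. The seedlings were vacuum infiltrated with 1 mM of the transcription inhibitor cordycepin and collected before (0 min) and at 7 times from 7.5 to 480 min after, with 4 libraries per genotype and time. WT carries SOV of Landsberg erecta (SOV-L.er) as a transgene in Col-0, sov is Col-0 without it, vcs is the vcs-7 mutant with the transgene, and vcs sov is vcs-7 without it. All 4 genotypes thus share the Col-0 background and received cordycepin, and vcs differs from WT, as vcs sov from sov, by the vcs-7 mutation. Each replicate pooled 50 to 60 seedlings per genotype, and the labels do not say how many independent transgenic lines were used.

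VCS (AT3G13300) stood at 121 to 158 nuclear RPM in WT and 120 to 134 in sov at 0 min, against 6.54 to 8.06 in vcs and 11.7 to 13.7 in vcs sov. SOV (AT1G77680) stood at 163 to 247 in WT and 29.3 to 48.9 in sov, then 734 to 901 in vcs and 232 to 275 in vcs sov. Libraries held 11.5 to 37.4 M reads in genes, and 3 reads correspond to 0.125 to 0.572 nuclear RPM. The share of these reads from nuclear genes at 0 min averaged 49.1% ± 1.80 for WT, 51.2% ± 0.926 for sov, 63.2% ± 1.32 for vcs and 73.5% ± 1.66 for vcs sov (SD, n = 4), so the choice of total matters: with RPM as deposited, plastid and mitochondrial reads included, 44 and 89 genes met the limits, of which 22 and 29 were among the 72 and 89. Markers of shoot and root cells were detected together, as whole seedlings imply: the 13 genes of the root hair and root epidermis list and the 11 of the leaf epidermis list summed to 88.6 to 102 and 1333 to 1454 nuclear RPM in WT. In whole seedlings, fewer cells of a type and less RNA per cell cannot be told apart.

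**Figure D1:**
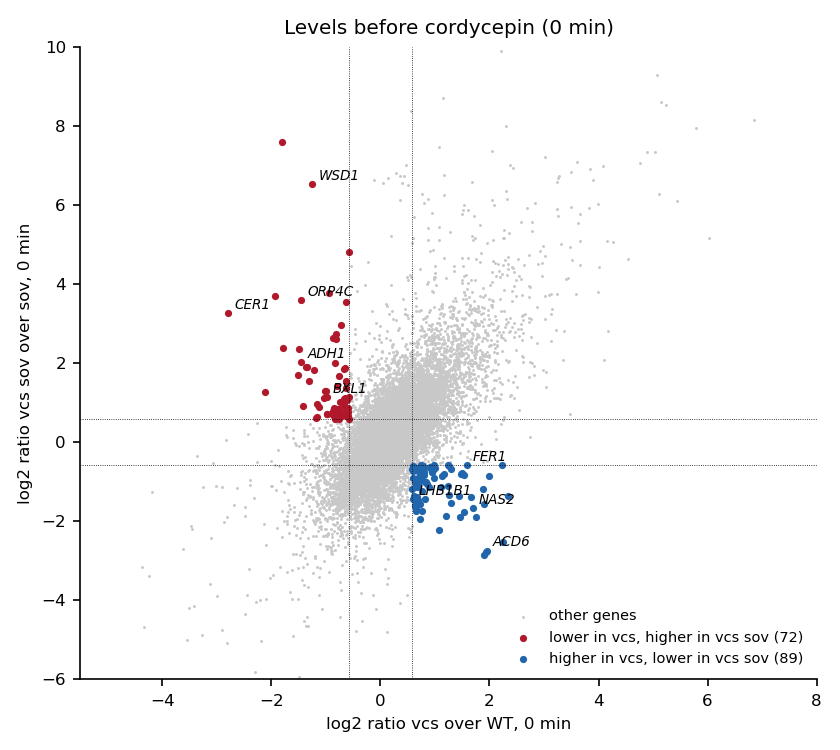
Ratios of mean levels at 0 min for genes of at least 5 nuclear RPM in 1 genotype, vcs over WT on the x axis and vcs sov over sov on the y axis, both as log2 with 0.05 nuclear RPM added. Dotted lines are the limits of 0.67 and 1.5. By the rule of choice, the 72 red genes fill the upper left corner and the 89 blue genes the lower right corner. They border on grey genes at the limits, and in the grey cloud both ratios mostly share a sign.

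The 0 min levels chose the genes, so the values of this time are a description without a test. In the 72 genes, the median ratio of vcs to WT was 0.564, that of vcs sov to sov 2.07, and that of vcs sov to vcs 3.67, while sov to WT was 0.954. In the 89 genes the corresponding medians were 1.75, 0.517, 0.273 and 1.1. Of the 72 genes, 68 were lowest in vcs and all 72 highest in vcs sov, and of the 89 genes 87 were highest in vcs and 88 lowest in vcs sov. Both changes were at least 2-fold in 17 and 19 genes. The libraries of both contrasts did not overlap in 33 of the 72 genes, where 0.574% of the 16721 genes showed this, and in 51 of the 89 genes, where 1.18% did.

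The genes nearest to the limits show how narrow the choice was. PIL6, the light-signalling factor also called PIF5, was just inside with ratios of 0.668 and 1.503, and AT4G32460 just outside with 0.671 and 2.18. FER1, which encodes the iron store ferritin, was just inside with 3.00 and 0.669, and GH9C2, an endoglucanase gene, just outside with 2.92 and 0.672. Leaving out each replicate in turn kept 33 of the 72 and 43 of the 89 genes every time.

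Among the genes lower in vcs and higher in vcs sov were genes of surface lipids and fatty acids. CER1 (AT1G02205), an enzyme of alkane synthesis in the cuticular wax, stood at 25.4, 19.4, 19.0 and 26.9 nuclear RPM in the WT libraries and at 25, 23.5, 21.5 and 18.9 in sov. It stood at 4.38, 2.54, 3.63 and 2.43 in vcs and at 152, 226, 172 and 307 in vcs sov. No group overlapped another except WT and sov, and the mean of vcs sov was 66.1-fold that of vcs. WSD1 (AT5G37300), a wax ester synthase, was at or near 0 in WT, sov and vcs, with at most 0.741 nuclear RPM in any of these 12 libraries, and at 5.48, 13.9, 9.61 and 20.2 in vcs sov. Its vcs and WT libraries overlapped, and its vcs libraries hold 6 reads in all. ADS1 (AT1G06080), a fatty acid desaturase, was at 1.24 to 2.98 in vcs, 3.37 to 6.35 in WT and 3.75 to 6.78 in sov, against 8.09 to 14.5 in vcs sov, without overlap in either contrast. Of 26 genes of wax synthesis that reached 5 nuclear RPM, CER1 and WSD1 alone met the limits of either set. At 7.5 min, 7 of 27 tested wax genes rose and 6 fell in vcs by limma, where 36.5% of all genes rose and 13.9% fell, and 15 rose and 4 fell in vcs sov against sov, where 41.7% rose and 28.8% fell. OLEO2, a seed oil body protein, was at 1.61 to 8.51 in vcs sov and at most 0.581 in the other 12 libraries, and the summed 16 seed maturation markers were at 9.22 to 42 nuclear RPM in vcs sov, 2.23 to 6.32 in sov, 2.77 to 11.1 in vcs and 4.23 to 5.23 in WT, so that vcs and vcs sov overlapped; their part in the result was not tested.

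Genes of energy metabolism and transport formed another part of the 72. ADH1 (AT1G77120), the alcohol dehydrogenase of fermentation, stood at 9.57, 13.6, 10.2 and 11.8 nuclear RPM in WT and 16.9, 12.5, 8.55 and 7.99 in sov, then 3.38, 4.82, 3.39 and 4.78 in vcs and 52.2, 48.7, 42.2 and 42.9 in vcs sov. The 4 vcs libraries lay below and the 4 vcs sov libraries above all others. SUC5 (AT1G71890), a sucrose transporter, was at 1.51 to 2.77 in vcs, 4.55 to 6.35 in WT and 5.51 to 7.02 in sov, against 16.6 to 31.6 in vcs sov. ORP4C (AT5G57240), an oxysterol-binding protein relative, was at 1.09 to 1.57 in vcs, 2.73 to 5.05 in WT and 2.72 to 10.4 in sov, against 52.0 to 76.4 in vcs sov. ABCB13 (AT1G27940), a transporter of the P-glycoprotein family, was at 0.588 to 1.08, 3.04 to 5.08, 3.45 to 3.70 and 7.05 to 10.8 in the same order. Again the 3 genes showed no overlap in either contrast. ASN1 (AT3G47340), an asparagine synthetase known from sugar starvation and darkness, was at 9.13 to 18.3 in vcs and 19.4 to 50.3 in WT, but its 12.3 to 35.6 in sov overlapped the 23.4 to 44.5 in vcs sov. It and PHI-1 were the members among the 18 sugar starvation genes of at least 5 nuclear RPM. The 18 genes had median 0 min ratios of 1.01 in vcs to WT and 1.66 in vcs sov to sov.

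Cell wall genes were the most abundant of the 72. Xyloglucan endotransglucosylases, which cut and rejoin wall xyloglucan, gave 5 genes (XTH33, XTH14, XTH12, XTH18 and TCH4), or 6.94% of the set, while the annotation word xyloglucan occurred in 0.155% of the 16721 genes and in 0 of the 89; the word was chosen after the members were seen. TCH4 (AT5G57560), a touch-induced member, stood at 630, 559, 344 and 458 nuclear RPM in WT and 638, 657, 230 and 287 in sov, then 458, 267, 244 and 332 in vcs and 750, 949, 607 and 731 in vcs sov. Its libraries overlapped in both contrasts. BXL1 (AT5G49360), a beta-xylosidase of the wall, stood at 260, 183, 201 and 180 in WT and 307, 202, 258 and 193 in sov, then 113, 83.5, 137 and 82.4 in vcs and 383, 534, 674 and 515 in vcs sov. Here neither contrast overlapped. RHS18 (AT5G22410), a root hair gene, was at 2.27 to 4.37 in vcs, 6.07 to 10.7 in WT and 5.16 to 7.86 in sov, against 9.85 to 14.7 in vcs sov. The summed 13 markers of root hair and root epidermis moved with it in vcs, at 53.6 to 72.9 nuclear RPM against 88.6 to 102 in WT, and stood at 82.9 to 106 in sov and 97.5 to 126 in vcs sov; their part in the result was not tested.

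**Figure D2:**
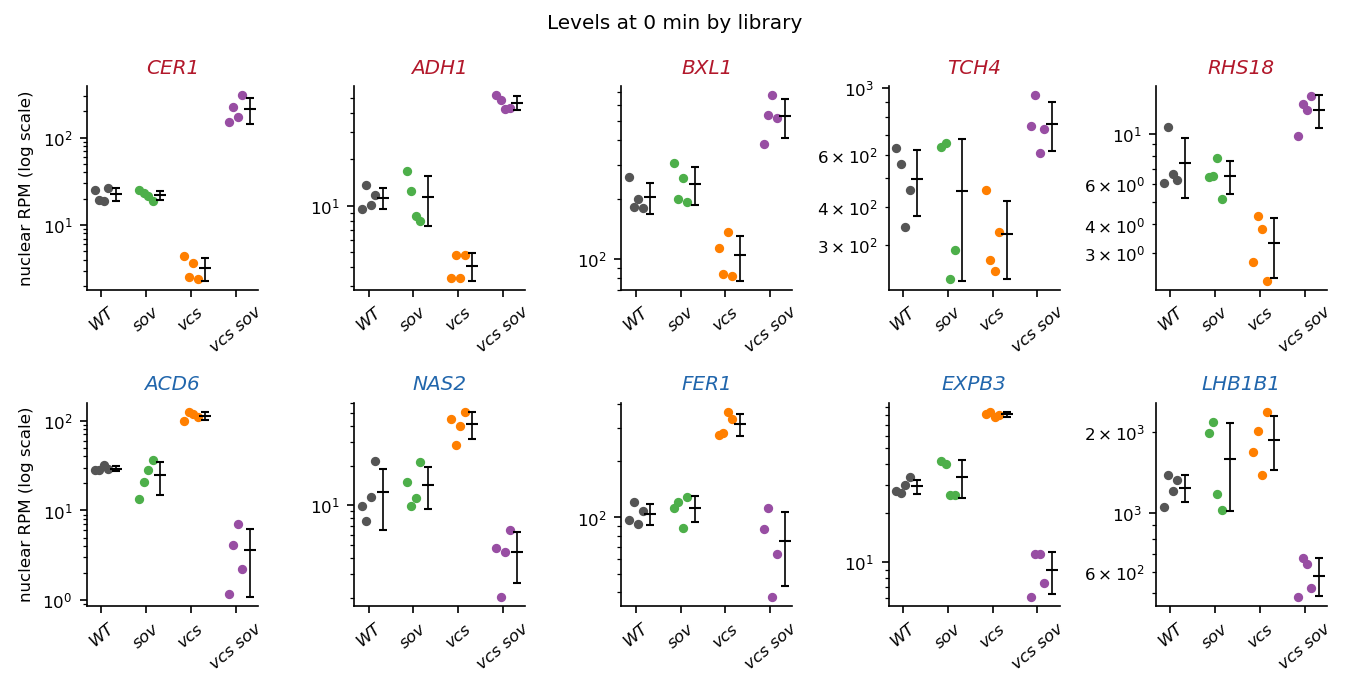
Levels at 0 min in each library, in nuclear RPM on a log axis, for 5 genes lower in vcs and higher in vcs sov (red titles) and 5 genes higher in vcs and lower in vcs sov (blue titles). Points are the 4 libraries of a genotype, and the bar to their right gives the mean and SD. The vcs libraries of CER1, at 2.43 to 4.38, and the vcs sov libraries of ACD6, at 1.19 to 7.01, lie apart from all others, while the libraries of TCH4 overlap.

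Among the genes higher in vcs and lower in vcs sov, ACD6 (AT4G14400), a membrane protein that promotes salicylic acid defence, showed a wide range. It stood at 28.0, 27.8, 32 and 29.2 nuclear RPM in WT and 13.4, 20.8, 28.5 and 36.3 in sov, then 98.8, 125, 118 and 110 in vcs and 1.19, 4.12, 7.01 and 2.24 in vcs sov. PR5 (AT1G75040), a thaumatin-like defence protein, was at 8.56 to 9.82 in vcs, 2.96 to 4.94 in WT and 2.53 to 4.92 in sov, against 0.397 to 1.22 in vcs sov. Neither gene overlapped in either contrast. They were the 2 members among the 17 salicylic acid defence genes of at least 5 nuclear RPM, of which 4 were at least 1.5 in vcs to WT and 2 at most 0.67 in vcs sov to sov. At 7.5 min, 5 of 22 tested genes of this list rose and 4 fell in vcs (36.5% and 13.9% of all genes), and 12 rose and 5 fell in vcs sov against sov (41.7% and 28.8%).

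Metal homeostasis genes included 3 of the 20 root iron uptake genes of at least 5 nuclear RPM, together with FER1. NAS2 (AT5G56080), which makes the metal chelator nicotianamine, stood at 9.92, 7.62, 11.6 and 21.7 nuclear RPM in WT and 15.0, 9.85, 11.5 and 21.2 in sov, then 45.0, 28.6, 40.2 and 51.1 in vcs and 4.77, 2.02, 4.46 and 6.56 in vcs sov. FRU (AT2G28160), the transcription factor FIT that switches on root iron uptake, was at 15.5 to 25.3 in vcs, 8.47 to 19.9 in WT and 10.2 to 18.24 in sov, against 3.84 to 6.43 in vcs sov, so that vcs and WT overlapped. MTPA2 (AT3G58810), a metal transporter of the vacuole, was at 11.1 to 13.4 in vcs, 5.34 to 6.35 in WT and 6.03 to 10.3 in sov, against 3.1 to 6.02 in vcs sov. FER1 (AT5G01600) stood at 277, 280, 366 and 335 in vcs and at 92.5 to 122 in WT, while 87.5 to 128 in sov overlapped 37.7 to 112 in vcs sov. Thus its rise in vcs was clear of all other libraries and its fall in vcs sov was not. Of the 22 iron uptake genes tested at 7.5 min, 7 rose and 2 fell in vcs, and 9 rose and 9 fell in vcs sov against sov. In all genes these shares were 36.5% and 13.9%, and 41.7% and 28.8%.

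Wall, root and light genes made up further members of the 89. AT1G31690, annotated as a copper amine oxidase, had the largest smaller change of the genes without a symbol, with 17.1 to 21.0 nuclear RPM in vcs, 3.56 to 4.43 in WT and 3.55 to 5.62 in sov, against 0.556 to 1.05 in vcs sov. EXPB3 (AT4G28250), a wall-loosening beta expansin, stood at 81.0, 84.1, 78.1 and 80.8 in vcs, 26.6 to 33.2 in WT and 25.9 to 41.8 in sov, against 6.12, 11.2, 11.2 and 7.47 in vcs sov. AGL12 (AT1G71692), a MADS-box factor of the root, was at 9.70 to 12.7, 3.60 to 5.48, 4.48 to 6.08 and 1.67 to 2.44 in the same order. In these 3 genes vcs lay above and vcs sov below every other library. LHB1B1 (AT2G34430), a chlorophyll-binding antenna protein, was the most abundant gene of the set, at 1049 to 1379 in WT and 1028 to 2183 in sov, then 1386 to 2385 in vcs and 485 to 680 in vcs sov. It differed from its list: of 25 antenna and Rubisco small subunit genes, 15 were at most 0.67 in vcs to WT and 1 was at least 1.5, while all 25 were at most 0.67 in vcs sov to sov. Reads of LHB1B1 may be shared with near-identical antenna genes. UPM1 (AT5G40850), which acts in siroheme synthesis for nitrite reduction, was at 378 to 550 in vcs, 193 to 220 in WT and 169 to 275 in sov, and at 213, 98.5, 94.4 and 90.2 in vcs sov. The first vcs sov library overlapped sov. TMM, a receptor of stomatal patterning, was the member among 8 stomatal lineage genes of at least 5 nuclear RPM; the summed 13 markers of this lineage were at 126 to 147 in vcs, 112 to 122 in WT and 112 to 136 in sov, against 78.1 to 101 in vcs sov, and their part in its values was not tested.

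Further named genes of both sets filled the range between these. NRT1.8, a nitrate transporter, was at 9.35 to 17.9 nuclear RPM in vcs, 18.8 to 25.3 in WT and 14.9 to 27.3 in sov, against 33.0 to 60.3 in vcs sov. XTH14 was at 8.56 to 14.8, 17.3 to 26.5, 15.7 to 24.7 and 27.1 to 42.7 in the same order, and EXT4, an extensin of the wall, at 6.59 to 14.2, 12.4 to 56.1, 18.8 to 21.5 and 50.1 to 67.03. NRT1.8 and XTH14 overlapped in neither contrast, and EXT4 overlapped between vcs and WT. ELIP2, an early light-induced protein, overlapped likewise, at 6.55 to 13.5 in vcs and 10.5 to 25.7 in WT. CYP81F4, which modifies indole glucosinolates, was at 342 to 433 in vcs, 170 to 258 in WT and 199 to 265 in sov, against 70.5 to 123 in vcs sov. AGP30, an arabinogalactan protein, was at 21.1 to 34.4, 10.9 to 15.98, 13.97 to 17.41 and 2.51 to 11.2 in the same order, and neither gene overlapped. FBA5, an aldolase, was at 92.3 to 173 in vcs and 45.1 to 56.6 in WT, while 19.3 to 31.3 in vcs sov overlapped 27.4 to 61.7 in sov. The 72 genes lay on all 5 chromosomes (18, 9, 8, 13 and 24 genes on chromosomes 1 to 5), as did the 89 (28, 14, 14, 17 and 16), and AT5G62360 and AT5G62370 were the 1 pair of direct neighbours within a set.

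Promoters were searched for short motifs because the members of a set share a direction by choice. The window was the 300 bases before the annotated gene start in the RefSeq annotation of TAIR10.1, which covered all 161 genes. The letters CACGTG, a G-box that reads alike on both strands, occurred in 14 of the 72 promoters (19.4%) and 8 of the 89 (8.99%), against 8.05% of the genes of at least 5 nuclear RPM and 7.07% of all 27995 promoters. ACGTGG, on either strand, overlaps CACGTG where a G follows, and occurred in 16.7% and 16.9% of the sets, against 10% of the genes of at least 5 nuclear RPM. AAATATC, which is only a part of the longer evening element, was read on either strand and occurred in 12.5% and 19.1%, against 14.8%. The W-box letters TTGACC or TTGACT occurred in 31.9% and 19.1%, against 31.9%. The other letters searched were ACCGAC (5.56% and 3.37%, against 6.24%), CCGAC (13.9% and 14.6%, against 15.4%) and AGATAAG (8.33% and 4.49%, against 5.81%). None of these shares was tested. These are matches of letters, not shown to be bound. The promoters with CACGTG whose genes had the largest smaller ratio are printed to show where the letters lie, 4 of the 72 (AT2G47780, ASG4, ADH1 and SUC5) and 2 of the 89 (AT5G37990 and MBP1). Each runs 5' to 3' on the gene's strand and ends at the base before the gene start, with CACGTG in capitals.
AT2G47780 (TAIR10.1 chr2:19569740-19570039, plus strand): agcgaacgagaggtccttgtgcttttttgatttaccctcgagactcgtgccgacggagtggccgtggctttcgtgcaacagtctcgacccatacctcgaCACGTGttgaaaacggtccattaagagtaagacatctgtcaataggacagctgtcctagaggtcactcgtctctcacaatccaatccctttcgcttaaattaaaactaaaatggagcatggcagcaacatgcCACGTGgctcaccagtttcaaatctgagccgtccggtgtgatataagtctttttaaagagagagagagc
ASG4 (TAIR10.1 chr1:190108-190407, plus strand): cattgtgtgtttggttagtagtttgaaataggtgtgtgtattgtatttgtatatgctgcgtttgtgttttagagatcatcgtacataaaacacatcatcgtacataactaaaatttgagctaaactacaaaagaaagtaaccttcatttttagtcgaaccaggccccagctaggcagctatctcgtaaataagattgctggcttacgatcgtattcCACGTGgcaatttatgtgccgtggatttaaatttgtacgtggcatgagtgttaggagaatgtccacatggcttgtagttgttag
ADH1 (TAIR10.1 chr1:28974955-28975254, plus strand): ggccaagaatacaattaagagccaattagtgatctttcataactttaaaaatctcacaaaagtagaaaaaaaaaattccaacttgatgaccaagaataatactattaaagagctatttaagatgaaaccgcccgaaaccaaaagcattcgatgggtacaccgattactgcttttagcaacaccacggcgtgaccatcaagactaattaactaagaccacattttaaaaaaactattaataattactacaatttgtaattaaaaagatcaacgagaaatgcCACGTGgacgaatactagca
SUC5 (TAIR10.1 chr1:27058081-27058380, plus strand): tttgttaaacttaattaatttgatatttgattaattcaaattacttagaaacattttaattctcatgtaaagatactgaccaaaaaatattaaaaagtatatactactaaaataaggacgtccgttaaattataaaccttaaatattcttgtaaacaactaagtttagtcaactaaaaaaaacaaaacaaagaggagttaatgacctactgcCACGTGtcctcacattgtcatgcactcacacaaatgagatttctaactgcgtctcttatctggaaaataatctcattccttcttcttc
AT5G37990 (TAIR10.1 chr5:15135170-15135469, minus strand): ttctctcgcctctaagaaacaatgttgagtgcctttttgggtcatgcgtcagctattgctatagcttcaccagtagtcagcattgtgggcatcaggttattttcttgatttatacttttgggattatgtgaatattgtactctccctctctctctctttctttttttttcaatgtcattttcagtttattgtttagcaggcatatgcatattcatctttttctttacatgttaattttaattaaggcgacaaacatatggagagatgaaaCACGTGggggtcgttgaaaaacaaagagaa
MBP1 (TAIR10.1 chr1:19352792-19353091, minus strand): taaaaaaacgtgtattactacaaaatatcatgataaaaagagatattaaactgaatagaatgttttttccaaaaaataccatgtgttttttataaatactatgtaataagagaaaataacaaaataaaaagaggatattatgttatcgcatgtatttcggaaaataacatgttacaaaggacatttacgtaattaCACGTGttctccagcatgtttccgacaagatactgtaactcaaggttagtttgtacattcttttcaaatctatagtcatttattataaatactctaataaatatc
AT2G47780, annotated as a rubber elongation factor protein, holds CACGTG at 201 and at 69 bases before the start, ASG4 at 84, ADH1 at 20, SUC5 at 88, AT5G37990 at 30 and MBP1 at 105. AT2G47780 stood at 75.0, 29.4, 31.1 and 20.7 nuclear RPM in vcs sov and at or below 0.639 in all other 0 min libraries, except 4.41 in WT replicate 4. That library holds most of the WT mean, and the vcs libraries hold 9 reads in all. ASG4 (AT1G01520), a MYB-like factor, was at 0.252 to 1.64 in vcs, 2.01 to 3.62 in WT and 1.81 to 3.32 in sov, against 10.6 to 17.3 in vcs sov, without overlap in either contrast. AT5G37990, annotated as a methyltransferase, was at 40.4 to 58.6 in vcs, 9.10 to 16.2 in WT and 4.88 to 19.5 in sov, against 0.556 to 3.07 in vcs sov. MBP1, a myrosinase-binding protein, was at 4.49 to 7.54 in vcs, 1.19 to 1.80 in WT and 0.824 to 1.64 in sov, against at most 0.174 in vcs sov, which rests on 8 reads in the 4 libraries.

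Levels were tested at 7.5 min, in libraries that had no part in the choice, with limma on log2 of nuclear RPM plus 0.5 over 20152 genes. These are other libraries, but replicates carry the same numbers across times and may come from the same plantings. The most alike pair of all libraries was vcs sov replicate 4 at 0 and 7.5 min (correlation 0.9972). The test at 7.5 min is therefore not taken as independent of the choice. Across all genes the median difference was 0.175 in vcs minus WT and 0.141 in vcs sov minus sov, and changes below are read against it. In level contrasts, rose and fell mean higher and lower than in WT (for vcs) or sov (for vcs sov), not changes over time. Of the 72 genes, 49 fell in vcs against WT, where 13.9% of all genes did, and 66 rose in vcs sov against sov, where 41.7% did. Both passed in opposite directions in 46 of the 72, against 0.913% of all genes. Of the 89 genes, 78 rose in vcs, where 36.5% of all genes did, and 76 fell in vcs sov, where 28.8% did. Both passed in 66 of the 89, against 1.99% of all genes. With RPM as deposited, 30 of the 72 fell in vcs and 30 passed in both contrasts, and 39 of the 89 fell in vcs sov and 38 passed in both. The shares of all genes under this scaling are not given here. The medians were -0.75 and 1.02 log2 units in the 72 genes and 0.79 and -0.86 in the 89.

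The difference between the effects of vcs-7 without and with functional SOV, the interaction, was positive and past the threshold in 69 of the 72 genes, where 19.1% of all genes were, and negative in all 89 tested, where 22% were. For CER1 the levels at 7.5 min were 25, 23.4, 22.6 and 25 in WT and 25.6, 25.2, 21.5 and 19.1 in sov, then 5.12, 4.11, 3.17 and 1.91 in vcs and 222, 205, 168 and 290 in vcs sov. It fell by 2.65 ± 0.20 log2 units in vcs (SE, n = 4, limma adjusted p = 2.2e-08) and rose by 3.23 ± 0.20 in vcs sov (adjusted p = 2.7e-10). For ACD6 the levels were 34.6, 23.9, 39.8 and 37.5 in WT and 13.0, 15.7, 17.64 and 29.8 in sov, then 98.0, 117, 88.7 and 95.5 in vcs and 1.03, 0.672, 2.17 and 2.18 in vcs sov. It rose by 1.56 ± 0.27 in vcs (adjusted p = 0.00016) and fell by 3.30 ± 0.27 in vcs sov (adjusted p = 1.3e-08). In both genes vcs and vcs sov again lay outside WT and sov on opposite sides. ADH1 fell by 1.26 ± 0.23 and rose by 2.07 ± 0.23, SUC5 fell by 1.48 ± 0.20 and rose by 1.73 ± 0.20, and BXL1 fell by 0.89 ± 0.28 and rose by 1.06 ± 0.28. EXPB3 rose by 2.09 ± 0.16 and fell by 1.59 ± 0.16, NAS2 rose by 2.21 ± 0.39 and fell by 2.04 ± 0.39, and FER1 rose by 1.29 ± 0.32 and fell by 0.96 ± 0.32. All of these passed the threshold.

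Some members did not pass in both contrasts at 7.5 min. TCH4 and PHI-1 rose by 1.32 ± 0.12 and 1.35 ± 0.14 in vcs sov, while their differences in vcs, -0.15 ± 0.12 (limma adjusted p = 0.32) and -0.20 ± 0.14 (adjusted p = 0.25), did not pass. AT2G47780 rose by 5.55 ± 0.37 in vcs sov, with -0.05 ± 0.37 in vcs, and WSD1 rose by 4.32 ± 0.24, with 0.41 ± 0.24 in vcs. ASN1 fell by 1.89 ± 0.45 in vcs, with 0.57 ± 0.45 in vcs sov. LDOX, an enzyme of anthocyanin synthesis, passed in neither, with -0.71 ± 0.57 and 0.35 ± 0.57. Among the 89, UPM1 rose by 1.73 ± 0.23 in vcs, with -0.48 ± 0.23 in vcs sov (adjusted p = 0.075), and TMM rose by 0.92 ± 0.17, with -0.08 ± 0.17. WNK9, a kinase gene just inside the limits, had -0.13 ± 0.15 in vcs, on the other side of 0 than at 0 min. Between sov and WT, 0 members passed by limma, where 0.0149% of all genes rose and 0.0298% fell. At an unadjusted p under 0.05, 5 of the 72 were higher and 1 lower, and 6 of the 89 higher and 7 lower; edgeR called 0 of either set. The members' medians were -0.03 and 0.03.

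Later times are given as counts, without a test between times. With group means, 70 of the 72 and 88 of the 89 genes still lay on opposite sides of 1 at 7.5 min, 54 and 74 at 60 min, and 51 and 49 at 480 min, when 53 genes of each set still reached 5 nuclear RPM in 1 genotype. At 480 min 18729 genes passed the filter on low levels, 67 and 85 of the members among them, and the median of all genes had moved to 0.23 in vcs minus WT and 0.69 in vcs sov minus sov. Of the 67 genes, 24 were lower and 5 higher in vcs, where 15% of all genes were lower, and 62 were higher in vcs sov, where 61.6% were. Both passed in opposite directions in 20 of the 67, against 3.14% of all genes. Of the 85, 57 were higher in vcs, where 37.8% of all genes were, and 33 were lower and 11 higher in vcs sov, where 14.4% were lower; both passed in opposite directions in 19, against 0.854%. These splits follow the scaling: centred on the median of all genes, 36 were lower and 2 higher of the 67 in vcs, and 65 were lower and 3 higher of the 85 in vcs sov. With RPM as deposited, 17 were lower and 12 higher of the 67 in vcs, and 18 were lower and 29 higher of 73 tested in vcs sov. Both scalings shift all genes, whose shares under them are not given here, so these counts do not set the members apart. The interaction was positive in 65 of the 67, where 38.6% of all genes were, and negative in 55 of the 85, where 9.8% were.

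**Figure D3:**
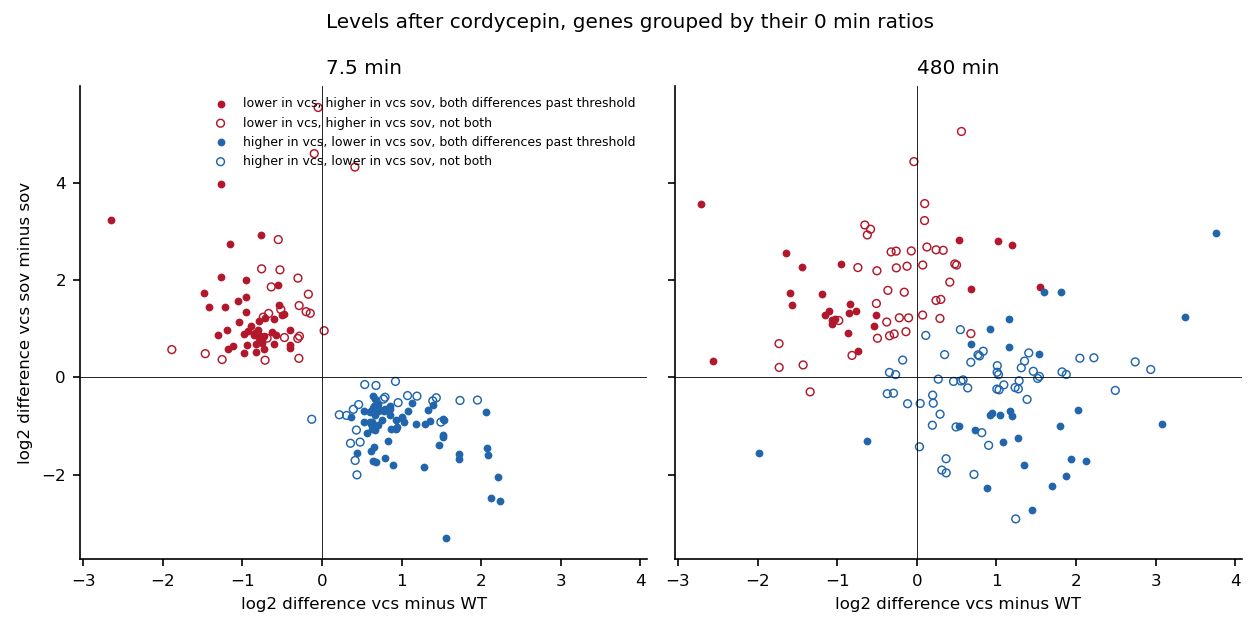
Differences in log2 of nuclear RPM plus 0.5 between vcs and WT (x axis) and between vcs sov and sov (y axis) at 7.5 and 480 min, for the genes that passed the filter. Filled points have both differences past the threshold, whichever their signs, and open points do not. At 7.5 min the 2 sets occupy opposite corners, and at 480 min they reach into neighbouring fields.

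CER1 kept its distance to 480 min, at 15.5 to 24.4 nuclear RPM in WT and 9.17 to 19.4 in sov, then 1.62 to 3.81 in vcs and 175 to 214 in vcs sov, and fell by 2.71 ± 0.22 in vcs and rose by 3.55 ± 0.22 in vcs sov at that time. ADH1 fell by 1.59 ± 0.15 and rose by 1.73 ± 0.15. EXPB3 rose by 1.93 ± 0.16 and fell by 1.67 ± 0.16, and AT1G31690 rose by 2.12 ± 0.17 and fell by 1.73 ± 0.17. In other genes 1 side was lost. FER1 was at 148, 150, 226 and 229 in vcs and 19.6 to 29.2 in WT, but its 25.2 to 44.8 in vcs sov overlapped the 25.6 to 36.4 in sov, with a difference of 0.16 ± 0.19 (adjusted p = 0.44). CIL, a CCT-motif protein, was higher in vcs sov than in sov by this time. It was at 34.3, 12.7, 16.1 and 16.2 in vcs sov and 20.01 to 30.7 in sov at 7.5 min. That difference of -0.42 ± 0.23 did not pass (limma adjusted p = 0.12). At 480 min it was at 24.2, 7.81, 16.2 and 10.5 in vcs sov against 0.709 to 1.77 in sov, higher by 2.97 ± 0.28 log2 units (adjusted p = 7.3e-09). ACR4, an ACT-domain protein, was lower in vcs sov than in sov by 0.44 ± 0.13 at 7.5 min (with 0.06 under RPM as deposited) and higher by 1.75 ± 0.21 at 480 min. PIL6 differed in vcs from WT by -0.30 ± 0.13 at 7.5 min, which did not pass (adjusted p = 0.067). It was higher in vcs by 0.53 ± 0.18 at 480 min (adjusted p = 0.016), as was PHI-1 by 1.19 ± 0.26. BBX15, a B-box zinc finger protein, was lower in vcs than in WT by 1.98 ± 0.21 at 480 min and higher by 0.75 ± 0.19 at 7.5 min.

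Decay was measured as the slope of log2 level on time over 7.5 to 120 min in each of the 16 courses, after scaling each library to 50 reference genes; a slope of -1 per h is a halving each hour. Slopes could be compared for 16851 genes, 55 of the 72 genes of the first set and 72 of the 89 of the second among them, called here the 55 and the 72 fitted genes, since a level of at least 2 was asked of every genotype at 0 min. The median slope of all genes was -0.55 per h in WT and -0.65 in sov, then -0.42 in vcs and -0.36 in vcs sov. Both sets declined faster than the median gene in WT, at -0.76 and -0.67 per h, and in sov, at -0.85 and -0.81. In vcs the 55 genes stood at -0.43 and the 72 fitted at -0.64, and in vcs sov at -0.39 and -0.51. So the first set came close to the median gene in vcs, and the second did not. The rule had chosen the sets by their vcs levels, with 0 min medians of 3.82 nuclear RPM over the first set and 19.3 over the second. Adding 0.5 before the log flattens slopes more at low levels, and its part in these set medians was not tested.

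**Figure D4:**
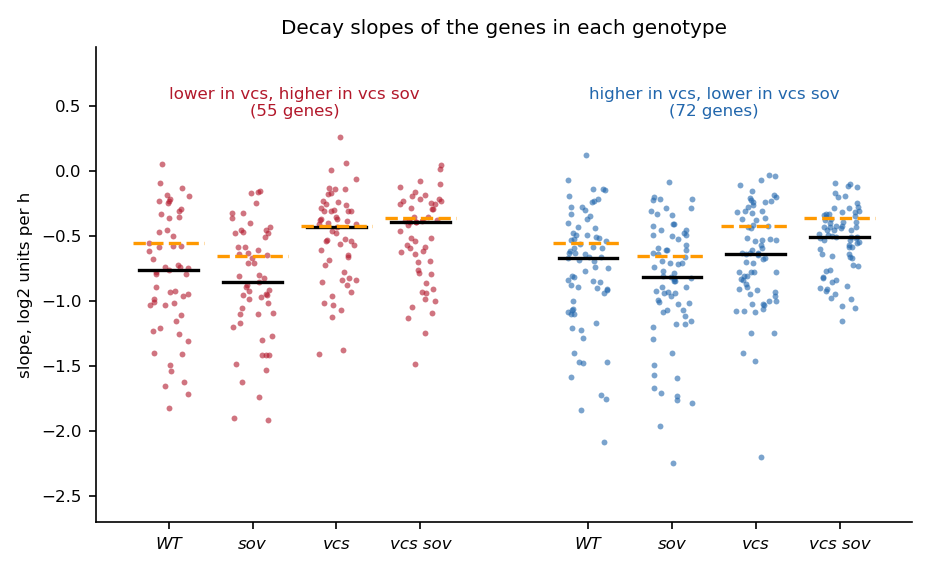
Slopes of log2 level on time over 7.5 to 120 min, per h, in each genotype for the 55 genes lower in vcs and higher in vcs sov (red) and the 72 genes higher in vcs and lower in vcs sov (blue) that could be fitted. Each point is a gene's mean over 4 courses, the black line is the median of the points, and the dashed orange line is the median of all 16851 genes. In vcs the black line lies at -0.43 for the red and at -0.64 for the blue genes, with all genes at -0.42.

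Slope changes were counted in both backgrounds and read against all genes. In vcs against WT, 25 of the 55 genes declined more slowly and 1 faster, and 21 of the 72 fitted genes more slowly and 9 faster, where 32% of all genes were slower and 3.09% faster by limma. In vcs sov against sov, 31 of the 55 were slower and 1 faster, and 37 of the 72 fitted slower and 0 faster, where 70.4% were slower and 1.32% faster. In vcs, the share of slower genes thus lay above that of all genes for the 55 and near it for the 72 fitted. In vcs sov it lay below that of all genes for both sets. Of the 72 fitted, 0 were faster also at an unadjusted p under 0.05. The median change of all genes was 0.13 per h in vcs minus WT and 0.28 in vcs sov minus sov, and that of the members 0.27 and 0.30 in the 55 genes and 0.11 and 0.26 in the 72 fitted. In vcs sov the medians of both sets thus lay near that of all genes, so the lower shares do not show a smaller slowing. Relative to the median gene, the counts were 18 slower and 2 faster in vcs and 16 slower and 10 faster in vcs sov for the 55 genes, and 14 slower and 16 faster and then 16 slower and 17 faster for the 72 fitted. In this centred fit 14.4% of all genes were slower and 12.1% faster in vcs, and 18.9% slower and 20.6% faster in vcs sov. Without reference scaling, the 72 fitted genes split into 15 slower and 16 faster in vcs and 23 slower and 11 faster in vcs sov. With references chosen by their lowest slope in any genotype, they split into 15 and 14, and 28 and 5. The shares of all genes without scaling and with these references are not given here, so these counts do not set the members apart from other genes. The shares of slower and faster genes therefore depend on the scaling, and values centred on the median gene are given for several of the genes named next.

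The slope effect of vcs-7 differed between the backgrounds for few members. The interaction was past the threshold in 2 upward and 3 downward of the 55 genes, and in 12 upward and 0 downward of the 72 fitted, where 8.37% of all genes were upward and 0.125% downward (by limma; 1 of the 72 fitted was downward at an unadjusted p under 0.05). Centred on the median gene, 0 and 3, and 4 and 1, passed, where 1.32% of all genes were upward and 1.34% downward. Without reference scaling 8 of the 72 fitted were upward and 1 downward, for which the share of all genes is not given here. Without replicate 2, 0 of the 55 passed in either direction and 2 of the 72 fitted upward, and without replicate 4, 0 and 1. Without replicate 3, 2 upward and 0 downward of the 55 and 9 of the 72 fitted passed. The 9 genes of the 72 fitted that were faster in vcs became 2, 5, 6 and 3 without replicates 1, 2, 3 and 4. The shares of all genes with a replicate left out are not given here, so these losses do not set the members apart. BBX15 (AT1G25440) had slopes of -0.98, -0.77, -1.12 and -0.75 per h in WT and -0.83, -1.11, -1.23 and -1.13 in sov, then -1.84, -2.36, -2.31 and -2.28 in vcs and -1.07, -1.16, -1.20 and -1.17 in vcs sov. All 4 vcs courses were steeper than the other 12. The change was -1.30 ± 0.10 in vcs (adjusted p = 2.4e-09) and -0.08 ± 0.10 in vcs sov (adjusted p = 0.5), with an interaction of 1.22 ± 0.15 (adjusted p = 7.4e-05). Centred on the median gene, BBX15 was faster in vcs sov too, by -0.37 ± 0.09 (adjusted p = 0.0035). GH9B8, an endoglucanase relative (whose difference was 0.13 over 7.5 to 60 min), and NAS2 also declined faster in vcs, by -0.32 ± 0.10 and -0.46 ± 0.14 per h, with -0.13 ± 0.10 and -0.04 ± 0.14 in vcs sov; their interactions did not pass (adjusted p = 0.39 and 0.18). Centred, GH9B8 was faster in vcs sov as well, by -0.42 ± 0.09 (adjusted p = 0.0015).

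In other genes the interaction passed with changes of the opposite sign in the 2 backgrounds or a change in 1 of them. TMM (AT1G80080) had slopes of -1.21 ± 0.18 in WT and -1.59 ± 0.32 in sov, then -1.40 ± 0.21 for vcs and -1.04 ± 0.11 for vcs sov (SD, n = 4), an increase of 0.56 ± 0.13 in vcs sov (SE) with an interaction of 0.75 ± 0.19 (adjusted p = 0.016). MTPA2 had -0.40 ± 0.20, -0.61 ± 0.21, -0.65 ± 0.05 and -0.20 ± 0.15 in the same order, with an interaction of 0.65 ± 0.16 (adjusted p = 0.015). Centred, the interactions of both genes missed the threshold (adjusted p = 0.066 and 0.07), as did their slower decline in vcs sov (adjusted p = 0.09 and 0.39), while MTPA2 was faster in vcs by -0.37 ± 0.10 (adjusted p = 0.011). FRI, a regulator of flowering time, declined faster in vcs by -0.33 ± 0.11 (adjusted p = 0.023) and more slowly in vcs sov by 0.42 ± 0.11 (adjusted p = 0.0019), with an interaction of 0.74 ± 0.16. EMB2219, a mitochondrial transcription termination factor relative, differed by -0.25 ± 0.11 in vcs (adjusted p = 0.079) and was slower in vcs sov by 0.45 ± 0.11 (adjusted p = 0.00086), with an interaction of 0.69 ± 0.16. Centred, FRI and EMB2219 were faster in vcs, by -0.45 ± 0.09 and -0.37 ± 0.09, and did not pass in vcs sov, at 0.12 ± 0.09 and 0.15 ± 0.09. CDF1 (AT5G62430), a DOF factor that represses flowering genes, went the other way: it declined by -0.58 ± 0.09 per h in WT and -0.70 ± 0.15 in sov, then -0.07 ± 0.11 in vcs and -0.62 ± 0.14 in vcs sov, with an interaction of -0.43 ± 0.13 (adjusted p = 0.036). Its scaled level stayed nearly flat in vcs and fell in the other genotypes. AGP3, an arabinogalactan protein of the wall, was the gene of the 55 that declined faster in vcs sov, by -0.28 ± 0.11 (adjusted p = 0.028), with 0.27 ± 0.11 in vcs (adjusted p = 0.06).

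**Figure D5:**
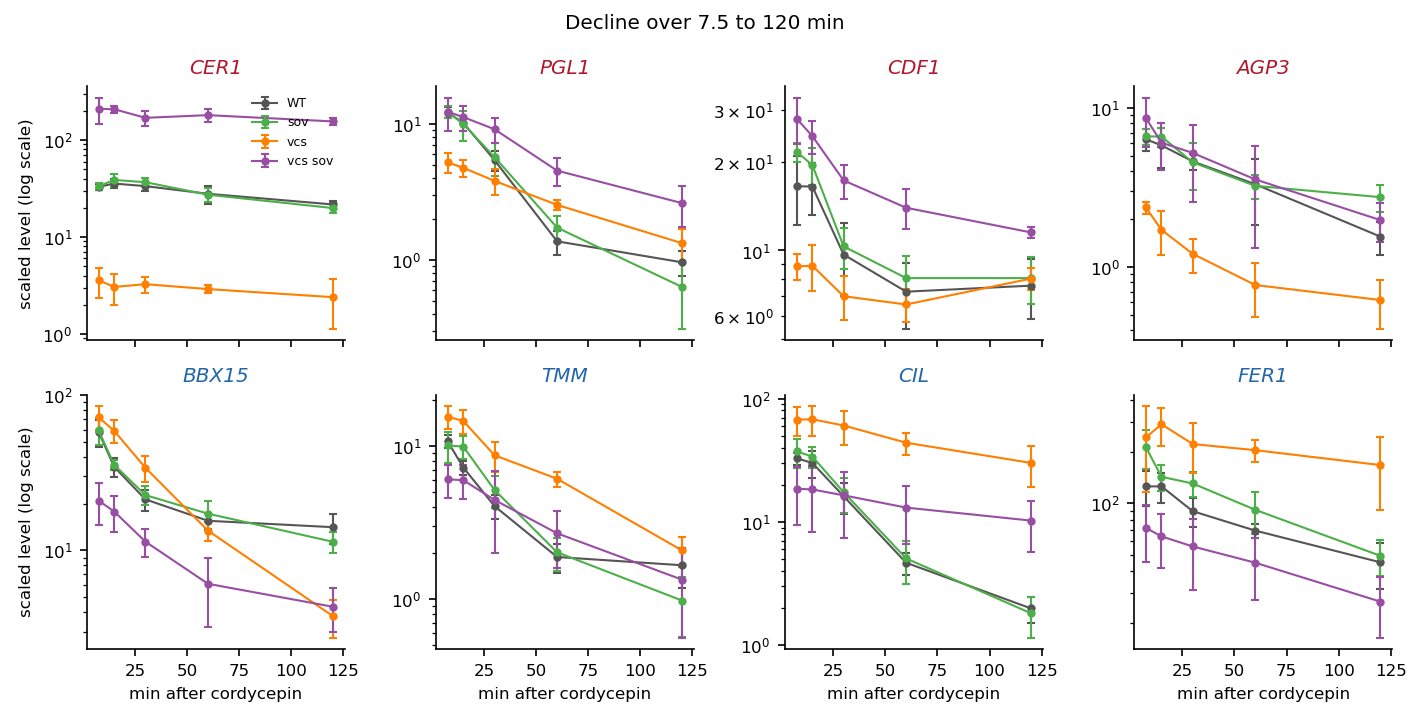
Levels scaled to the reference genes over 7.5 to 120 min after cordycepin, on a log axis, for 4 genes lower in vcs and higher in vcs sov (red titles) and 4 genes higher in vcs and lower in vcs sov (blue titles). Points are means of 4 libraries and bars their SD. BBX15 falls steeply in vcs, with a slope of -2.20 per h, and CIL falls less steeply in vcs and vcs sov than in WT and sov. The slope of CER1 differs by 0.11 per h between vcs and WT and by 0.28 between vcs sov and sov.

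Slope changes of the same sign in both backgrounds accompanied opposite levels in other members. CIL (AT4G25990) declined at -2.08 ± 0.24 per h in WT and -2.24 ± 0.26 in sov, but at -0.67 ± 0.11 for vcs and -0.44 ± 0.11 for vcs sov (SD, n = 4). Its slope rose by 1.42 ± 0.12 and 1.81 ± 0.12 (SE; adjusted p = 9.5e-09 and 6.1e-11), and its 0 min level was 2.45-fold in vcs and 0.617-fold in vcs sov. UPM1 went from -1.72 ± 0.24 and -1.76 ± 0.18 in WT and sov to -0.83 ± 0.09 and -0.90 ± 0.05 in vcs and vcs sov. ACD6 went from -1.83 ± 0.31 and -1.73 ± 0.32 to -1.08 ± 0.13 and -0.51 ± 0.12. Among the 55, PGL1, a 6-phosphogluconolactonase, went from -1.72 ± 0.16 and -1.91 ± 0.15 to -0.88 ± 0.18 and -1.13 ± 0.07, and BBX18, a B-box protein, from -1.21 ± 0.20 and -1.27 ± 0.18 to -0.30 ± 0.34 and -0.52 ± 0.14. In these 5 genes both slope changes passed the threshold, including PGL1 and BBX18, which were lower in vcs at 0 min.

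For other genes with opposite levels the slope differences depended on the scaling. CER1 declined at -0.36 ± 0.11 per h in WT and -0.48 ± 0.12 in sov, then -0.25 ± 0.23 in vcs and -0.20 ± 0.16 in vcs sov. Its slope differed by 0.11 ± 0.10 in vcs (adjusted p = 0.37) and 0.28 ± 0.10 in vcs sov (adjusted p = 0.012), and, centred on the median gene, by -0.01 ± 0.09 in both. Under reference scaling ADH1 differed by 0.01 ± 0.08 and 0.08 ± 0.08, EXPB3 by 0.01 ± 0.08 and -0.02 ± 0.08, and AGL12 by -0.05 ± 0.10 and 0.12 ± 0.10. BXL1 differed by -0.11 ± 0.08 and 0.09 ± 0.08, and LHB1B1 by 0.04 ± 0.06 in both backgrounds, and none of these 5 genes passed. Centred, all 5 lay below 0 in both backgrounds. In vcs sov EXPB3 was then faster than the median gene's change by -0.32 ± 0.06 (adjusted p = 0.00023), LHB1B1 by -0.25 ± 0.06 (adjusted p = 0.0016) and BXL1 by -0.20 ± 0.08 (adjusted p = 0.044), and BXL1 also in vcs by -0.23 ± 0.08 (adjusted p = 0.03). ADH1, at -0.12 ± 0.09 and -0.21 ± 0.09, and AGL12, at -0.18 ± 0.10 and -0.17 ± 0.10, did not pass. WSD1, ORP4C, ASG4, ABCB13, OLEO2, AT2G47780, MBP1, PR5 and AT1G31690 could not be fitted because 1 or more genotypes lay below a level of 2.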

How the data were processed

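The authors deposited RPM values (reads of a gene scaled to library size) for 28775 genes in 128 libraries; reads had been aligned to TAIR10 with TopHat2 2.0.12 and Bowtie2 2.2.3 and counted with HTSeq 0.6.1, per the submitters' processing notes, while the annotation and strand setting are not given in the sources used here. All values (100%) were whole multiples of 1 read within 0.001, and these recovered reads entered edgeR 4.0.16 as an alternative test. Each library was rescaled to genes with ids AT1G to AT5G, so a level is a share of nuclear transcripts and not an amount per cell. The members and gene lists were chosen with earlier results of these data known.

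Levels at 7.5 and 480 min were tested with limma 3.58.1 (R 4.3.3; trend and robust options) on log2 of nuclear RPM plus 0.5, for genes with a mean of at least 1 in 1 genotype, with 4 libraries per genotype, Benjamini-Hochberg adjustment over all genes and a threshold of 0.05. Slopes used 80 libraries, 5 times in each of 16 courses, scaled to the 50 genes of at least 10 nuclear RPM with the highest mean slope, and the same limma contrasts on genes of at least 2 at 0 min in every genotype. A stable reference hides any decay shared by all genes. The contrasts were vcs minus WT, vcs sov minus sov, their difference, and sov minus WT; these comparisons share their libraries in part. Both tests were checked on simulated data.

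The genes named are, per set, the 12 with a symbol and the largest smaller log2 ratio, the 4 highest, all in a gene list, the 3 without a symbol with the largest smaller ratio, the 5 with the largest called slope difference per contrast, and the 2 nearest to the limits. Replicates are the labels' biological replicates, and 3 reads is taken as the floor of a library; such floors cover counting error only. Per the labels, tubes of the 60 min libraries of replicate 3 in vcs and vcs sov had been swapped and were relabelled; slopes were refitted without them. Alternatives covered scaling, pseudocount, filters, test, window, references and each replicate left out. The other deposited files were not used.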

Additional observations from a re-analysis of the deposited data

Results flagged for a closer look

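In 20 of 240 groups of 4 libraries at 0 min, 1 library stood apart from the other 3 by most of the group's range (Dixon's 95% limit), where chance gives about 1 in 20. In 5 of them that library was vcs sov replicate 1: ELIP2 was at 76.7 nuclear RPM against 36.4 to 41.6 in the other 3, NRT1.8 at 60.3 against 33.0 to 37.4, UPM1 at 213.2 against 90.2 to 98.5, CIL at 30.1 against 16.3 to 16.8, and PR5 at 0.397 against 1.19 to 1.22.

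In WT, replicate 1 was high for EXT4 at 56.1 against 12.4 to 14.8 and for FBA5 at 56.6 against 45.1 to 46.8. Replicate 2 was high for RHS18 at 10.7 and low for CIL at 26.7, replicate 3 was low for MTPA2 at 5.34, and replicate 4 was high for AT2G47780 at 4.41 against 0.148 to 0.467. In sov, replicate 1 was high for BBX18 at 9.22 and MTPA2 at 10.3, replicate 3 for ORP4C at 10.4 and WNK9 at 9.38, and replicate 4 was high for EMB2219 at 9.19 and low for AT1G77520 at 1.14. In vcs, AGP30 was high in replicate 1 at 34.4, AGL12 in replicate 3 at 12.7 and MTPA2 in replicate 4 at 13.4.

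In the limma interaction of levels at 7.5 min, 19.1% of all genes were upward and 22% downward. The members had been chosen at 0 min for such opposite effects. The effect of vcs-7 on the level at 7.5 min differed between the backgrounds upward in 69 of the 72 genes and downward in 89 of the 89. On the slope it differed upward for BBX15 (1.22 per h), TMM (0.747), FRI (0.744), EMB2219 (0.692), MTPA2 (0.653), ACR4 (0.576) and XYL4 (0.553), with limma adjusted p-values of 7.35e-05, 0.0163, 0.006, 0.00882, 0.015, 0.0132 and 0.0328. It differed downward for XTH12 (-0.667), AGP3 (-0.547) and CDF1 (-0.430), with adjusted p-values of 0.0481, 0.0312 and 0.0364.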

How the results depend on the processing

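The number of genes chosen became 44 and 89 with RPM as deposited, 67 and 53 with each library scaled to its median (41 and 37 shared), and 17 and 19 with fold limits of 0.5 and 2. Without 1 replicate it ranged from 64 to 109 and from 79 to 111. At 7.5 min, RPM as deposited gave 30 genes lower in vcs and 30 in both contrasts of the 72, and 39 lower in vcs sov and 38 in both of the 89; without 1 replicate the counts ranged from 41 to 53 and 38 to 48, and from 67 to 78 and 50 to 71. At 480 min, genes of the 85 lower in vcs sov were 18 with RPM as deposited, 65 centred and 52 with edgeR, and those in both contrasts 33 centred and 30 with edgeR. The shares of all genes under each alternative are not given here, so these counts do not set the members apart from other genes. Slope counts moved most, in 59 of 192 values. Of the 55, those slower in vcs were 16 over 7.5 to 60 min, 16 without reference scaling and 12 with a filter of 5, and 16 to 26 without 1 replicate; faster were 2 without reference scaling and 2 centred. Slower in vcs sov were 11 over 7.5 to 60 min, 16 with a filter of 5 and 16 centred, and 21 to 31 without 1 replicate; faster were 0 over 7.5 to 60 or 7.5 to 240 min or with a filter of 5, 2 with a filter of 1 and 10 centred, and 0 to 1 without 1 replicate. Interactions upward were 0 over 7.5 to 60 min and centred, and downward 1 over 0 to 120 min, 0 over 7.5 to 60 min, and 1 with a pseudocount of 0.1 or a filter of 5; they were 0 to 2 and 0 to 3 without 1 replicate. Of the 72 fitted genes of the other set, those slower in vcs were 13 to 16 without 1 replicate, and faster 4 over 7.5 to 60 min or with a filter of 5, 16 without reference scaling, 14 with references by lowest slope, 16 centred, and 2 to 6 without 1 replicate. Slower in vcs sov were 10 over 7.5 to 60 min, 23 without reference scaling, 21 with a filter of 5, 16 centred, and 28 to 36 without 1 replicate; faster were 1 over 7.5 to 240 min, 11 without reference scaling, 2 with 100 references, 5 with references by lowest slope, 17 centred, and 0 to 1 without 1 replicate. Interactions upward were 0 over 7.5 to 60 min, 20 over 7.5 to 240 min, 5 with a filter of 5, 4 centred and 1 to 10 without 1 replicate, and downward 1 over 7.5 to 240 min, without reference scaling, with references by lowest slope or centred. Single values changed sign for the slope of GH9B8 in vcs (0.13) and ADS1 in vcs sov (-0.12) over 7.5 to 60 min, for centred slopes in vcs sov of CER1 (-0.0103), ELIP2 (-0.00833) and FER1 (-0.00592), and for the 7.5 min level of ACR4 in vcs sov with RPM as deposited (0.065). The cause of these shifts was not tested, except that a shorter window and a higher filter use fewer libraries or genes. The centred slopes and the references by lowest slope were chosen after seeing the data.

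Replicate numbers were not used to pair the samples in the main tests. Correlations of same-numbered deviations between WT and vcs at 7.5 min ranged from -0.0639 to 0.285, and other-numbered ones reached 0.417. Between sov and vcs sov, same-numbered ones reached 0.332 and other-numbered ones 0.16. At 480 min these highest values were 0.315 and 0.381 for WT and vcs, and 0.399 and 0.168 for sov and vcs sov. For slopes they were 0.167 and 0.177, and 0.153 and 0.0837. Not every library correlated best with its own number. Whether the numbers pair the samples was not tested. With the replicate block, 52 and 66 of the 72 and 80 and 78 of the 89 genes passed in vcs and vcs sov at 7.5 min, and 1 gene of the 72 fitted was faster in vcs sov. The shares of all genes with this block are not given here, so these counts do not set the members apart. Levels near 3 reads limit the genes whose lowest group is under 1 nuclear RPM, 13 and 6 of the sets.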
